A study of Homo sapiens with 9 samples.

Results

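The genes described here encode the proteins of the cytosolic ribosome. They were taken as every listed gene whose transcript types include protein_coding and whose name follows the RPL or RPS numbering, together with RPLP0, RPLP1, RPLP2 and RPSA, which gave 85 of the 61544 genes listed. Of these, 53 belong to the large and 32 to the small subunit. The 77 core genes encode the standard ribosome (46 large, 31 small), and 8 are minor paralogs, extra copies of a core gene: RPL22L1, RPL39L, RPS27L, RPL36AL, RPL7L1, RPL26L1, RPL3L and RPL10L. RNA was sequenced from HMC3, an immortalized human line used as a microglia-like cell, in 3 libraries per group after 6 days of exposure. VEH cells received the solvent DMSO. SLO cells received 10 µM SBI-0206965 (against ULK1, a kinase that starts autophagy), 1 µM O-151 (against OGG1, which removes oxidized bases from DNA) and 1 µM Lopinavir (which disturbs Lamin A maturation). SLO ½ cells received 5, 0.5 and 0.5 µM of these compounds. No label names a genotype change, and all groups share the parental line, so the comparisons are between doses of one mixture and not between its compounds.

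Each ribosome holds one copy of nearly every core protein, and the proteins are made in step with each other. Free copies that do not enter a ribosome are degraded, and free RPL5 and RPL11 bind MDM2, the ligase that keeps p53 low. Most of their mRNAs begin with a C followed by a run of pyrimidines, the terminal oligopyrimidine (TOP) motif, through which the kinase complex mTORC1 and the RNA-binding protein LARP1 control their translation and stability. The genes have spawned many processed pseudogenes, so short reads from several of them match more than one place in the genome. The minor paralogs can replace or accompany their parent protein in some tissues, and some have separate uses: RPS27L is induced by p53, RPL7L1 acts in ribosome assembly, RPL3L is typical of heart and skeletal muscle, and RPL39L and RPL10L of testis.

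The first transcribed bases carry the TOP motif, and they are shown here for the genes on which the results turn. Each line gives 30 bases around a start site listed by RefSeq (GRCh38.p14), with 10 bases before the start and 20 from it, in the direction of transcription. Capitals mark an unbroken run of C and T that begins with C at the first transcribed base and is at least 5 bases long. The set holds RPSA and RPL13A, with steep falls, RPS6, the substrate of the S6 kinases, and pairs of a minor paralog and its parent. RPL7L1 is shown without its parent. RPL10 and RPL10L also have listed starts but are not shown.
RPSA (chr3:39406710-39406739, plus strand): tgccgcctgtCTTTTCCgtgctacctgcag
RPL13A (chr19:49487598-49487627, plus strand): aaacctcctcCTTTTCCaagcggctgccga
RPS6 (chr9:19380217-19380246, minus strand): gaagttggccCTCTTTTCCgtggcgcctcg
RPL22 (chr1:6199576-6199605, minus strand): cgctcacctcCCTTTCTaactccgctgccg
RPL22L1 (chr3:170870176-170870205, minus strand): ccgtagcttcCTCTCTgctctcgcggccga
RPS27 (chr1:153990752-153990781, plus strand): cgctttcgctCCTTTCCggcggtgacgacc
RPS27L (chr15:63157458-63157487, minus strand): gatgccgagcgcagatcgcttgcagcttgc
RPL36A (chrX:101391001-101391030, plus strand): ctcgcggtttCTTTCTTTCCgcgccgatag
RPL36AL (chr14:49620607-49620636, minus strand): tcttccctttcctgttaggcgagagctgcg
RPL26 (chr17:8383174-8383203, minus strand): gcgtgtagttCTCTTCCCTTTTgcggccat
RPL26L1 (chr5:172958719-172958748, plus strand): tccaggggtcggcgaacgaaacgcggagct
RPL7L1 (chr6:42879606-42879635, plus strand): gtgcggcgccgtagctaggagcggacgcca

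All 4 parents shown carried such a run, and of the 5 paralogs shown RPL22L1 did. Over the whole table, 62 of the 77 core genes had a listed start and 46 of them (74.2%) had a run at one of their starts, 28 of 38 large and 18 of 24 small subunit genes. Of the 8 minor paralogs, 6 were listed and 1 had a run (16.7%). Among all 27305 genes of the table the share was 5.14%. A listed start can lie a few bases from the one used in these cells, and the letters were read from the reference and not from these libraries. Runs that begin within 10 bases of a listed start were also counted. They were found in 90.3% of core genes, 33.3% of minor paralogs and 37.4% of all genes. RPL36AL, counted above without a run, has an unbroken stretch of C and T across its listed start.

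The libraries held 14834295 to 19674841 reads on genes. Of 10 microglia markers, 2 passed the expression filter, and AIF1, CX3CR1, P2RY12, PTPRC, SPI1 and TMEM119 had at most 3 counts in every library, so the label microglia rests on the name of the line and not on these defining genes. The summed level of those 10 markers was 1.46 to 2.52 TPM (a level scaled for gene length and library total) in VEH, 4.11 to 6.31 under SLO ½ and 4.80 to 5.08 under SLO. Nothing states that the 3 libraries of a group came from separate cultures, so the p-values measure the spread between these libraries, which may be technical.

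Ribosomal protein genes took a smaller share of the reads as the dose rose. The 85 genes together took 3.26, 3.03 and 3.21% of the reads on genes in the VEH libraries, 2.7, 2.73 and 2.67% under SLO ½ and 2.17, 2.11 and 2.09% under SLO. The groups did not overlap, and the mean share fell to 0.853 of its VEH value under SLO ½ and to 0.67 under SLO. These are shares of each library's reads, so the RNA content per cell was not measured, and in bulk RNA a lower level in every cell cannot be told apart from fewer cells with a high level. Reads that matched several places, which were not counted, moved in the same direction: 8.35% to 8.52% of all reads in VEH, 7.83% to 7.95% under SLO ½ and 7.16% to 7.31% under SLO. Their part in the result was not tested. Pseudogenes named after these genes (1294 listed) took a mean of 0.0305% of the reads in VEH and 0.0226% under SLO, small beside the share of the genes themselves.

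The large subunit core genes held 1.89, 1.75 and 1.85% of reads in VEH, 1.56, 1.59 and 1.55% under SLO ½ and 1.26, 1.23 and 1.21% under SLO. The small subunit core genes held 1.31, 1.22 and 1.29%, then 1.08, 1.09 and 1.06%, then 0.841, 0.822 and 0.819%. Both subunits thus stepped down at each dose. The ratio of large to small subunit reads was 1.443, 1.4315 and 1.434 in VEH, 1.444, 1.459 and 1.462 under SLO ½ and 1.502, 1.498 and 1.481 under SLO. The groups did not overlap, although VEH 1 and SLO ½ 1 were almost equal, and the small subunit share fell slightly more than the large. The minor paralogs kept a nearly constant share, with means of 0.0582 ± 0.0011% in VEH, 0.0594 ± 0.00076% under SLO ½ and 0.0586 ± 0.00098% under SLO (SD, n = 3), SLO overlapped both other groups, and SLO ½ lay just above VEH without overlap.

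**Figure D1:**
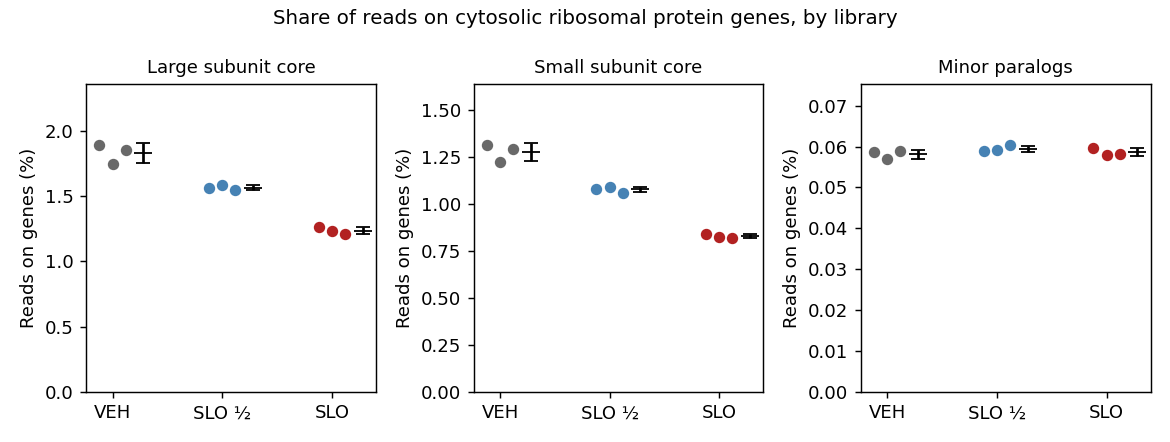
Share of the reads on genes (percent, y axis from 0) taken by the large subunit core genes, the small subunit core genes and the minor paralogs in each of the 9 libraries (points), with the group mean and SD (black). Both core panels step down from VEH to SLO ½ to SLO, the large subunit from a mean of 1.83% to 1.24%, while the minor paralogs stay between 0.0569% and 0.0603%.

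Almost the whole core moved in one direction. Gene by gene, 83 of the 85 genes passed the expression filter, which RPL10L and RPL3L did not. Between SLO and VEH 77 of them fell, 2 rose and 4 were not called (edgeR, adjusted p below 0.05), beside 64.9% of all 14727 tested genes called in either direction, 32.1% of them falling and 32.9% rising. The median log2 fold change was -0.61 for these genes and 0.014 for all tested genes. The CPM (counts scaled to the library's total, with TMM factors) of 79 genes did not overlap between the groups, against 66.7% of all genes.

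In SLO ½ 67 genes fell, 3 rose and 13 were not called, with a median of -0.24. Over all tested genes 52.0% were called, 25.3% falling and 26.7% rising, and their median was 0.015. The CPM of 69 genes did not overlap with VEH, against 58.3% of all genes. From SLO ½ to SLO 76 fell, 1 rose and 6 were not called, where 41.1% of all genes were called, 20.3% falling and 20.8% rising, with medians of -0.37 and -0.0014. Here 78 genes did not overlap, against 51.0% of all. Both doses are set against the same VEH libraries, so their falls are not independent of each other. Of the 74 core genes that fell under SLO, 64 fell in every one of the 3 comparisons. The same count was not made over all tested genes, so it is not read as a trait of the core. The median gene of these 74 had reached 41.5% of its full-dose log2 change under SLO ½ (quartiles 32.2% and 46.2%).

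Falls were counted in both subunits. Of the large subunit core, 45 of 46 fell and 1 rose under SLO (median -0.62), and 39 fell, 1 rose and 6 were not called under SLO ½ (median -0.25). Of the small subunit core, 29 of 31 fell and 2 were not called under SLO (median -0.67), and 26 fell, 1 rose and 4 were not called under SLO ½ (median -0.25). Of the 6 minor paralogs tested, 3 fell, 1 rose and 2 were not called under SLO (median -0.17), and 2 fell, 1 rose and 3 were not called under SLO ½ (median 0.0097). Ribosomal proteins of the mitochondrion, which translate the mitochondrial genome, had a smaller median change: 48 of 77 fell, 6 rose and 23 were not called under SLO, with a median of -0.25. Over all tested genes, 32.1% fell and 32.9% rose under SLO, 64.9% called in either direction. Under SLO ½ 25.3% of them fell and 26.7% rose, 52.0% called in either direction.

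**Figure D2:**
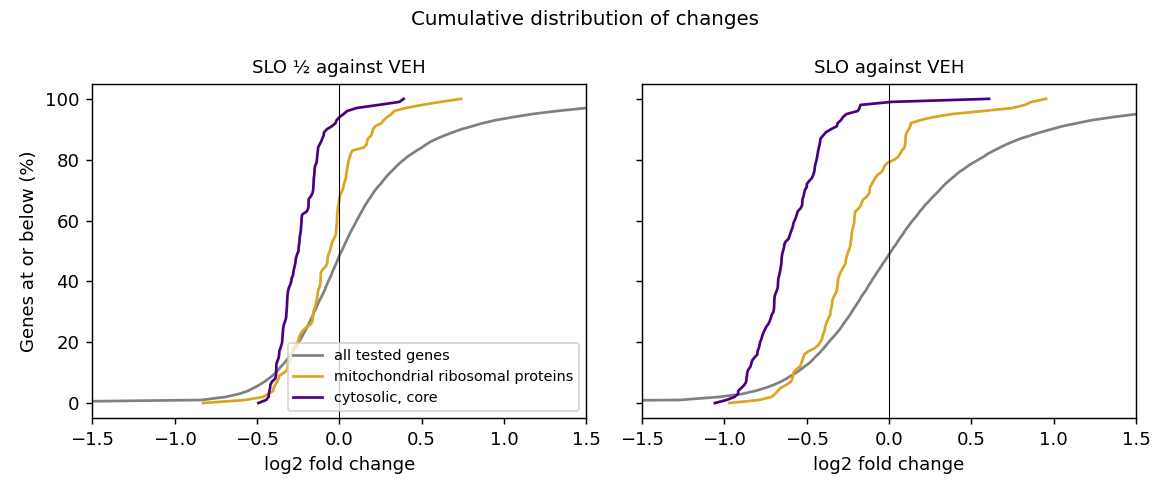
Cumulative distribution of log2 fold changes (x axis) as percent of genes (y axis) for all 14727 tested genes, the 77 core cytosolic ribosomal protein genes and 77 mitochondrial ribosomal protein genes, at each dose against VEH. At the full dose the core curve crosses 50% at -0.64, the mitochondrial curve at -0.25 and all genes at 0.014.

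The steepest fall under SLO was that of RPSA (ENSG00000168028.14, chr3:39406716-39412542), a small subunit protein also described as a laminin receptor. Its CPM was 478, 464 and 490.3 in VEH, 375, 393 and 369 under SLO ½ and 230.0, 230.3 and 228 under SLO. No library of one group reached those of another, and the larger step lay between SLO ½ and SLO. The log2 fold change was -0.33 ± 0.039 under SLO ½ (SE, adjusted p = 2.8e-08) and -1.06 ± 0.04 under SLO (adjusted p = 2.8e-19), with -0.72 ± 0.04 between the doses (adjusted p = 2.1e-14). RPSA has 74 named pseudogenes, and its counts come from its distinct parts.

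Other small subunit genes with the smallest p followed. RPS23, a protein of the decoding centre, had CPM of 737, 680.1 and 714 in VEH, 533, 536 and 520.0 under SLO ½ and 396, 381 and 392 under SLO (log2 fold change under SLO -0.87 ± 0.04, adjusted p = 2.8e-17). RPS3, at the entry of the mRNA channel, went from 1031, 972 and 995 to 784, 756 and 749 and then 583, 555 and 534 CPM. Both stepped down at each dose with no overlap. RPS7 had a log2 fold change of -0.84 under SLO, RPS2 of -0.79 and RPS4X of -0.70. RPS27A, made as a fusion with ubiquitin, fell by 18.3% under SLO ½ and fell by 45.2% under SLO. RPS6, whose protein is phosphorylated downstream of mTORC1, had 1594, 1538 and 1611 CPM in VEH, 1232, 1271 and 1230.1 under SLO ½ and 983, 920.1 and 976 under SLO, and fell by 39.3% at the full dose.

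In the large subunit RPL7 fell most. Its CPM was 228, 228 and 229 in VEH, 176, 182 and 167 under SLO ½ and 120.5, 111 and 120.0 under SLO (log2 fold change under SLO -0.96 ± 0.043, adjusted p = 1.6e-17). The 3 VEH libraries were nearly equal and each dose lay well below the one before. RPL13A, which also takes part in silencing inflammatory mRNAs, had 381, 344 and 382, then 283, 292 and 276, then 201, 196 and 190.5 CPM. RPL10, which joins the subunit last, had a log2 fold change of -0.43 under SLO ½ and -0.89 under SLO, and RPL3, close to the peptidyl transferase centre, of -0.42 and -0.86. RPL27A fell by 45% under SLO. RPL7A had log2 fold changes of -0.43 under SLO ½ and -0.36 from SLO ½ to SLO.

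By role, RPL5 and RPL11, which enter the ribosome with the 5S rRNA, both fell at each dose. RPL5 had 902, 893 and 919 CPM in VEH, 677, 714 and 693 under SLO ½ and 525, 505 and 530.4 under SLO. RPL11 had 754, 702 and 739, then 598, 595 and 577, then 472, 461 and 464. The groups did not overlap, and under SLO RPL5 fell by 42.5% and RPL11 fell by 36.4%.

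The stalk, to which elongation factors bind, varied in size of change. Its base protein RPLP0 had a log2 fold change of -0.75 ± 0.039 under SLO, RPL12 of -0.57 ± 0.042, RPLP2 of -0.43 ± 0.043 and RPLP1 of -0.28 ± 0.042, and all 4 fell. RPLP1 had CPM of 393, 355 and 395 in VEH, 379.6, 379 and 369 under SLO ½ and 319, 312 and 313 under SLO. In SLO ½ its libraries lay within the VEH range (log2 fold change -0.02, adjusted p = 0.71), whereas RPLP0, RPLP2 and RPL12 were called there. The RPLP2 call was lost under library size scaling (-0.085) and without VEH 1 (-0.092).

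Of the 8 proteins that line or ring the exit tunnel, through which the new chain leaves, all fell under SLO (median -0.57) and 5 fell under SLO ½ (median -0.17). Of all core genes 96.1% fell under SLO (median -0.64) and 84.4% under SLO ½ (median -0.25). Over all tested genes these shares were 32.1% and 25.3%. The 3 tunnel proteins not called under SLO ½ were RPL17, RPL39 and RPL26, each counted at 5.67 to 49.8 CPM in VEH. RPL17 had 14.9, 14.6 and 16.2 CPM in VEH, 15, 15.7 and 14.7 under SLO ½ and 10.4, 10.1 and 10.1 under SLO, so its fall lay between SLO ½ and SLO (log2 fold change -0.57 ± 0.088, adjusted p = 4.9e-06). A readthrough gene shares 32.9% of its exon bases on the same strand. RPL19 had the smallest called change of the 8 under SLO ½ (-0.16) and -0.61 under SLO.

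Of 10 proteins of the head and platform of the small subunit, 9 fell under SLO. The 4 that are marked with ubiquitin when ribosomes collide, RPS2, RPS3, RPS10 and RPS20, all fell under SLO. RPS10 did so from 5.4, 6.04 and 5.95 CPM to 3.45, 5.36 and 4.59 (log2 fold change -0.38 ± 0.15, adjusted p = 0.028), and this call was lost with DESeq2 (-0.38), under library size scaling (-0.30), with limma on unfiltered TPM (-0.37) and when reads of its named pseudogenes were added (log2 fold change -0.11). It was also lost without VEH 2 (-0.35), VEH 3 (-0.36) or SLO 1 (-0.22). RPS20 had a log2 fold change of -0.42. Of 18 core genes mutated in Diamond-Blackfan anemia, an inherited failure of red cell production, 16 (88.9%) fell under SLO with a median of -0.52. Of all core genes 96.1% fell under SLO, with a median of -0.64, and of all tested genes 32.1% fell. These sets thus did not stand out from the core.

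**Figure D3:**
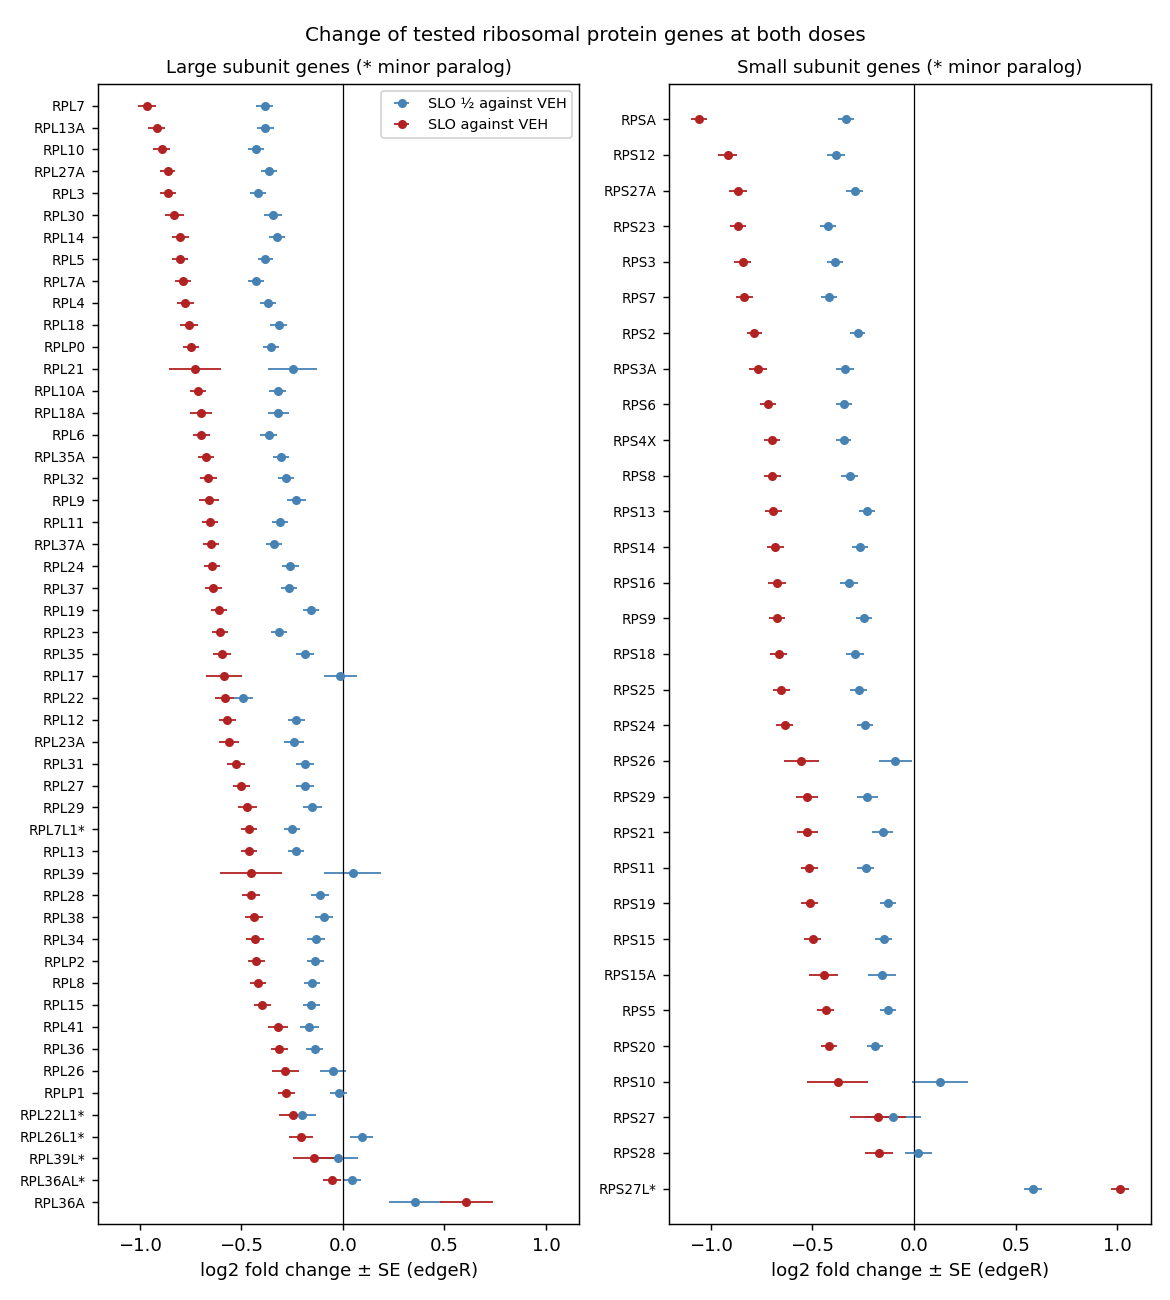
Log2 fold change with its SE (edgeR) of the tested genes, except 1 that is not reported here, under SLO ½ (blue) and SLO (red) against VEH, large subunit on the left and small subunit on the right, ordered by the change under SLO. Nearly all red points lie below 0 and beyond the blue ones, RPSA at the lower end with -1.06, while RPS27L (1.01) and RPL36A (0.61) lie above 0.

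The smallest called falls of core genes under SLO belonged to RPS28 (-0.17), RPLP1, RPL26 (-0.28), RPL36 (-0.31) and RPL41 (-0.32). RPS28 had 29, 25.5 and 29.1 CPM in VEH, 28.1, 27.7 and 29.2 under SLO ½ and 24.6, 25.7 and 24.1 under SLO, its VEH and SLO ranges overlapped, and its call (adjusted p = 0.028) was lost with DESeq2, under library size scaling, with at least 10 counts in every library, and without VEH 1, VEH 3, SLO 1 or SLO 3 (-0.17 to -0.14). RPS27 was not called at either dose, with 8.7, 7.35 and 7.05, then 7.44, 7.38 and 6.59, then 5.57, 8.65 and 6.05 CPM. Without SLO 2 it was called as falling under SLO (-0.40, adjusted p = 0.015). In both genes the libraries of a group differed by as much as the groups did.

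Among core genes RPL36A was the exception that rose under SLO (ENSG00000241343.10, chrX:101390824-101396155). Its CPM was 11, 10.3 and 10.7 in VEH, 12.7, 16.8 and 11.6 under SLO ½ and 13.1, 20.3 and 15.4 under SLO. Both treated groups lay above VEH without overlap and overlapped each other, with SLO ½ 2 and SLO 2 well above the others of their groups. These libraries also had the highest shares of reads on no annotated gene, 8.01% and 8.38%. The part of this in the rise was not tested. The log2 fold change was 0.61 ± 0.13 under SLO (adjusted p = 1.7e-04) and 0.36 ± 0.13 under SLO ½ (adjusted p = 0.025). The SLO ½ call was lost with DESeq2, with limma on TPM, without VEH 2 (0.33) or VEH 3 (0.36), and without SLO ½ 2 (0.18). RPL36A has 23 named pseudogenes, and a readthrough gene shares 8.4% of its exon bases.

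The 7 core genes with less than 20 CPM in VEH, among them RPL39, RPS10, RPS27, RPL21, RPL36A and RPL17, held 10 to 72 named pseudogenes each, with a median of 18, against a median of 9 in the other 70. All of them were among the 12 core genes that rose or were not called in a comparison with VEH, the others being RPS26, RPS28, RPL26, RPLP1 and RPL38. RPL21 had 10.2, 9.19 and 9.09 CPM in VEH, 7.27, 9.21 and 7.49 under SLO ½ and 5.27, 6.83 and 4.99 under SLO, and was called under SLO (-0.73), and under SLO ½ without SLO ½ 2 (-0.36) or with pseudogene reads added (-0.26). RPS26 was likewise called under SLO and not under SLO ½, with 22.2, 22.3 and 22.8, then 23.5, 21.5 and 18.1, then 15.7, 16 and 14. RPL38, at 467, 427 and 467 CPM in VEH and 419, 436 and 423 under SLO ½, is not of low count and overlapped VEH under SLO ½ (log2 fold change -0.093, adjusted p = 0.08, but called with no filter, with limma on TPM and without VEH 2, at -0.14 to -0.11), and it fell to 356, 331 and 318 under SLO. The part of low unique counts in these missing calls was not tested.

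RPL22 had nearly all of its fall under SLO ½. Its CPM was 80.1, 77.7 and 78.4 in VEH, 55.9, 55.4 and 56.8 under SLO ½ and 54, 50.1 and 53.8 under SLO. The treated groups lay close together, just without overlap, and far below VEH. The log2 fold change was -0.49 ± 0.047 under SLO ½ (adjusted p = 7.7e-10), the largest fall of the 83 genes at that dose, -0.58 ± 0.048 under SLO (adjusted p = 1.1e-11) and -0.091 ± 0.049 between the doses (adjusted p = 0.15). RPL22 is dispensable for making ribosomes and also binds viral and cellular RNAs.

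**Figure D4:**
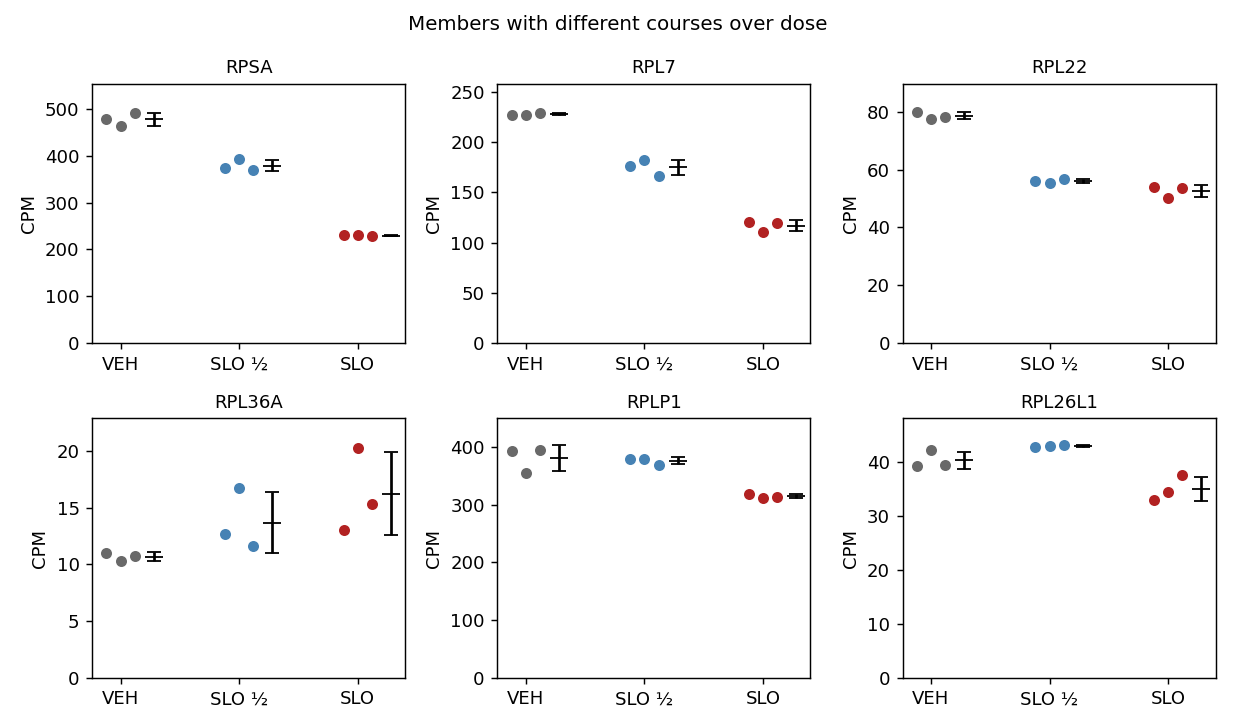
CPM in each library (points; y axes from 0) with the group mean and SD (black) for 6 genes with different courses over dose. RPSA and RPL7 step down at each dose, RPL22 falls under SLO ½ and changes little after it, RPL36A rises, RPLP1 stays within the VEH range under SLO ½ and is lower under SLO, and RPL26L1 is highest under SLO ½.

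The minor paralogs were measured against their parents. The clearest rise was that of RPS27L (ENSG00000185088.14, chr15:63125872-63158021), the p53-induced copy of RPS27. Its CPM was 69.5, 64.9 and 68.2 in VEH, 101, 101 and 102 under SLO ½ and 136, 138 and 135 under SLO. The libraries of a group were close together and every step was far larger than their spread. The log2 fold change was 0.58 ± 0.043 under SLO ½ (adjusted p = 4.2e-12), 1.01 ± 0.043 under SLO (adjusted p = 3.5e-18) and 0.43 ± 0.041 between the doses (adjusted p = 1.3e-09). It was the sole gene of the 83 to rise from SLO ½ to SLO. By the paper's account, the way this line was immortalized disrupts the p53 and Rb pathways. The part of p53 in the rise of RPS27L was not tested.

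RPS27L rose while RPS27 did not pass the test, and their ratio rose. The ratio of RPS27L to RPS27 counts was 7.96, 8.8 and 9.64 in VEH, 13.5, 13.6 and 15.4 under SLO ½ and 24.3, 15.9 and 22.3 under SLO, 2.33 times higher under SLO than in VEH. An exact permutation test of any difference among the 3 groups (F statistic, 1680 assignments of 9 libraries) gave p = 0.00357 (adjusted over the 6 pairs tested, 0.0107), the smallest p it can give. It does not test one pair of groups, since 3 libraries against 3 cannot go below 0.10, so the folds between groups are descriptions. SLO library 2, with the highest RPS27 CPM, had the lowest ratio of its group. RPS27 is counted from few distinct reads, so the size of the ratio itself depends on the counting.

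RPL7L1, the nucleolar relative of RPL7, fell less than its parent. It had 286, 283 and 291 CPM in VEH, 245, 233 and 244 under SLO ½ and 214, 199 and 211 under SLO (log2 fold change under SLO -0.46 ± 0.04, adjusted p = 3.4e-11). The ratio to RPL7 was 1.26, 1.24 and 1.27 in VEH, 1.39, 1.28 and 1.47 under SLO ½ and 1.78, 1.8 and 1.76 under SLO. No groups overlapped, and the ratio was 1.42 times higher under SLO than in VEH (exact permutation p = 0.00357, adjusted 0.0107).

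RPL22L1 also fell less than RPL22, which is known to repress it. Its CPM was 27, 26.1 and 29.1 in VEH, 25.5, 23.7 and 22.3 under SLO ½ and 22.6, 23.8 and 23.1 under SLO, and it fell at both doses (log2 fold changes -0.20 ± 0.069 and -0.24 ± 0.07, adjusted p = 0.015 and 0.0032) with no call between them. The SLO ½ call was lost under library size scaling (-0.15) and without VEH 3 (-0.15) or SLO ½ 3 (-0.16). The ratio to RPL22 was 0.337, 0.336 and 0.372 in VEH, 0.457, 0.428 and 0.393 under SLO ½ and 0.42, 0.476 and 0.429 under SLO. Both treated groups lay above VEH and overlapped each other (exact permutation p = 0.0179, adjusted 0.0357). The adjusted p was no longer below 0.05 when any of 6 libraries was left out, VEH 1 and 2, SLO ½ 2 and 3, and SLO 2 and 3, with differences of 0.29 to 0.39 on the log2 scale over all 9 libraries left out.

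RPL36AL, an intron-poor copy of RPL36A, did not pass the test at either dose. It had 171, 164 and 168 CPM in VEH, 165, 176 and 177 under SLO ½ and 172, 155 and 157 under SLO (log2 fold change under SLO -0.055 ± 0.044, adjusted p = 0.28). Without SLO 1 the fall was called (-0.11, adjusted p = 0.048). Its ratio to RPL36A was 15.4, 15.8 and 15.6 in VEH, 13, 10.5 and 15.2 under SLO ½ and 13.1, 7.65 and 10.2 under SLO, lower without overlap but not past the threshold after adjustment (exact permutation p = 0.0429, adjusted 0.0643). The drop in the ratio came with the rise of the parent described above.

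RPL26L1 moved to opposite sides of VEH at the doses, without overlap at either. It had 39.4, 42.2 and 39.5 CPM in VEH, 42.8, 43 and 43.2 under SLO ½ and 33.1, 34.5 and 37.6 under SLO. Every SLO ½ library lay above and every SLO library below the VEH range, the first not called (log2 fold change 0.093 ± 0.057, adjusted p = 0.18) and the second called (-0.20 ± 0.059, adjusted p = 0.0034). Under library size scaling the first was called (0.14) and the second was not (-0.13). Its parent RPL26 had 50.1, 47.3 and 52, then 53.8, 45.3 and 45.3, then 43, 41.9 and 38 CPM, and the ratio of the pair did not pass the test (exact permutation p = 0.514, adjusted 0.514).

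RPL39L had 10.8, 9.26 and 9.82 CPM in VEH, 9.14, 10.1 and 10.2 under SLO ½ and 8.72, 9.24 and 9.11 under SLO and was not called in any comparison. Its parent RPL39 had 5.4, 4.99 and 6.63, then 7.04, 5.09 and 5.63, then 4.18, 4.12 and 4.26 CPM, and fell under SLO (-0.45 ± 0.15, adjusted p = 0.011). That call was lost without VEH 3 (-0.32) and with limma on unfiltered TPM (-0.40). The ratio of the pair did not pass the test (exact permutation p = 0.175, adjusted 0.21). RPL3L had 1, 0 and 1 counts in VEH, 4, 3 and 3 under SLO ½ and 8, 17 and 6 under SLO, too few for the filter, beside 859, 801 and 829.7 CPM of RPL3 in VEH. RPL10L had 0 counts in every library.

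**Figure D5:**
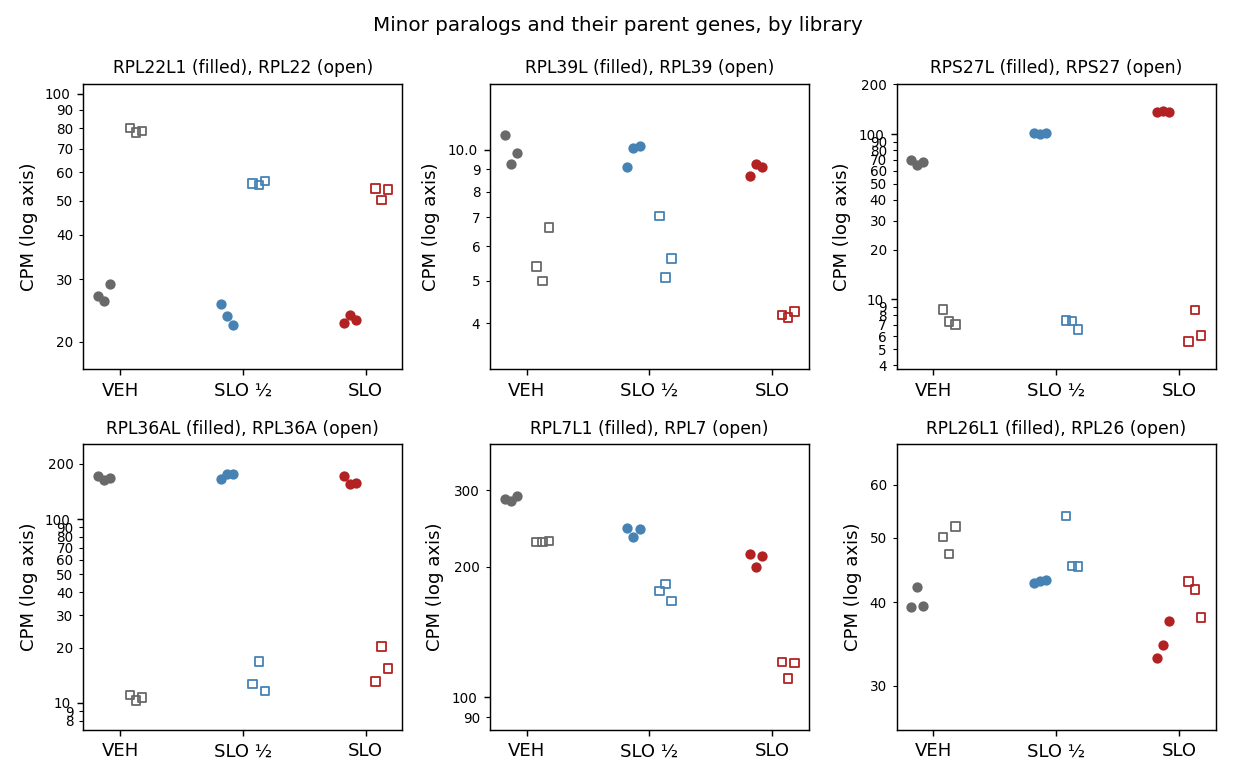
CPM (log axis) of 6 minor paralogs (filled circles) and their parents (open squares) in each library of VEH, SLO ½ and SLO. RPS27L climbs from a mean of 67.5 to 136 CPM while RPS27 stays between 5.57 and 8.70, and RPL7 and RPL22 drop more than RPL7L1 and RPL22L1.

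Levels between genes were compared on TPM, which divides by gene length. In VEH the highest large subunit levels were those of RPL8 (1894 ± 36.8 TPM, SD, n = 3), RPL10A (1321 ± 42) and RPL11 (1294 ± 41.6). The last pair did not differ beyond the spread. In the small subunit they were RPS18 (3397 ± 172), RPS6 (2759 ± 64.3) and RPS4X (1443 ± 30.0), each apart from the next. Among the lowest were RPL39 (12.5 ± 1.92), RPL36A (12.7 ± 0.376) and RPL21 (20.3 ± 1.21) in the large and RPS10 (11.9 ± 0.785) and RPS27 (35.2 ± 3.78) in the small subunit. These levels count unique reads only, and the part of reads shared with pseudogenes in the low ones was not tested. The deposited TPM divide by all annotated exons of a gene, retained introns included, which is 2.89 times the main mRNA length for the median gene and up to 33.4 times.

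That choice of length changes how a paralog compares with its parent. In VEH RPL36AL stood at 91.9 times RPL36A in TPM and 17.6 times per length of the main mRNA. RPL39L stood at 3.61 and 0.939 times RPL39, and RPS27L at 1.02 and 0.505 times RPS27. RPL26L1 stood at 1.72 and 0.593 times RPL26. In these last 3 pairs the order turned. The order across genes also moved: in CPM per kilobase of the main mRNA the highest in VEH were RPL19 (1253), RPL27 (988) and RPL30 (886) in the large subunit, above RPL8 (812), RPL11 (719) and RPL10A (590), and RPS18 (2412), RPS24 (1583) and RPS6 (1155) in the small subunit. Changes between groups in counts and CPM use no gene length. Shares of TPM do use it. On TPM the mean share of the ribosomal protein genes fell to 0.809 of VEH under SLO ½ and to 0.644 under SLO. On reads these values were 0.853 and 0.67.

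RACK1 and FAU, ribosomal proteins named after another product, fell under SLO. RACK1, a signalling scaffold on the small subunit, had 1123, 1042 and 1069 CPM in VEH and 695, 688 and 666 under SLO, and fell by 36.7%. FAU, which encodes a ubiquitin-like fusion of a small subunit protein, was not called under SLO ½ (-0.024) and fell under SLO (-0.34).

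A list of 17 genes for translation factors and related proteins, known as TOP mRNAs, had 12 with a listed start and 10 with a run there. Of those tested, 16 of 16 fell under SLO (median -0.60) and 14 under SLO ½, where 1 rose. EIF4B, a helicase cofactor in initiation, had 685, 636 and 666 CPM in VEH, 418, 400.2 and 416 under SLO ½ and 316, 295 and 334 under SLO. EEF1A1, which brings tRNAs to the ribosome, had a log2 fold change of -1.02 under SLO and EIF3E of -0.87. Of 13 genes that govern TOP mRNAs or mTORC1, 6 fell, 1 rose and 6 were not called under SLO (median -0.10), beside 32.1% and 32.9% of all tested genes that fell and rose. Among them LARP1 went from 527, 569 and 541 CPM to 344, 355 and 365 (-0.62), MYC, an activator of ribosomal genes, had -0.73, and EIF4EBP2, a repressor of initiation, rose by 49.8%.

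Of 8 chaperones that escort single ribosomal proteins, 6 fell under SLO. BCCIP, the partner of RPL23, had -0.68, AAMP, a partner of RPS2, had -0.35, and GRWD1, the partner of RPL3, had -0.32. Of 11 factors that act on collided ribosomes, 5 fell, 4 rose (by up to 0.39 on the log2 scale) and 2 were not called, with a median of -0.093, where 32.1% of all tested genes fell and 32.9% rose. The 3 with the smallest p had fallen, with USP10, a deubiquitinase, at -0.47, LTN1, the ligase for stalled chains, at -0.45 and GCN1, a sensor of collisions, at -0.40. Of the mitochondrial ribosomal proteins, MRPL3 (-0.97), MRPS27 (-0.70) and MRPL19 (-0.73) had the smallest p under SLO.

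The size of the fall was compared with features of the genes as a description. Across the 77 core genes, the log2 fold change under SLO had a Spearman correlation of -0.43 with the mean VEH CPM, -0.27 with the length of the main mRNA and -0.19 with the number of named pseudogenes. The VEH values enter both the log2 fold change and the mean VEH CPM, so noise in them alone pushes that correlation below 0. The size of that part was not tested. These genes were measured in the same 9 libraries, and the core genes of low CPM had more named pseudogenes. The 46 core genes with a run at their start had a median log2 fold change of -0.65 under SLO and -0.25 under SLO ½, and the 16 listed without one had -0.63 and -0.23. Of these sets, 44 of 46 and 16 of 16 fell under SLO.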

How the data were processed

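The authors trimmed reads of polyadenylated RNA libraries (KAPA RNA HyperPrep) (Trimmomatic 0.38), mapped them on GRCh38 (STAR 2.7.1a) and deposited stranded gene counts of uniquely aligned reads, with no normalization. The authors also deposited TPM of the same reads, which equal the counts divided by the length of all annotated exons and scaled. The annotation release is not given in the sources used here; exon lengths of 81 of 84 genes matched GENCODE v44. Reads without a gene took no part in the tests.

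Counts were tested with edgeR 4.0.16 (filterByExpr, TMM factors 0.968 to 1.035, quasi-likelihood fit of 3 groups over 9 libraries, Benjamini-Hochberg over 14727 genes) in R 4.3.3, checked on simulated counts. The common biological coefficient of variation was 3.76%. Paralog to parent ratios used counts with 0.5 added and an exact permutation test. Shares, medians and correlations are descriptions without a test. Alternatives were DESeq2 1.42.0, its size factors, library size alone, TMM without ribosomal protein genes, no filter, at least 10 counts, 2 groups only, a replicate block, pseudogene counts added, limma 3.58.1 on log2(TPM + 1) or log2(TPM + 0.1), other ratio settings and each library left out; the main mRNA length (Ensembl canonical, GENCODE v44) was added after seeing the data. Gene membership used protein_coding as any of the listed transcript types. The rule for named genes took all minor paralogs and parents, the smallest p per subunit and list, all genes that rose or were not called, fixed functional genes, and the extremes of level and of change between doses. RPL12, RPL19, RPL27, RPL30 and RPS24 fall outside that rule and were named after their values were seen. Some genes of these lists enter the counts but are not reported here by name. Members and lists were chosen with earlier results of these data known.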

Additional observations from a re-analysis of the deposited data

Results flagged for a closer look

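RPL26L1 was picked out because its libraries moved to opposite sides of VEH at the doses. It had 39.4, 42.2 and 39.5 CPM in VEH, 42.8, 43 and 43.2 in SLO ½ and 33.1, 34.5 and 37.6 in SLO, so all 3 SLO ½ libraries were higher and all 3 SLO libraries lower than every VEH library. The difference between the doses had a log2 fold change of -0.30 ± 0.058 from SLO ½ to SLO (edgeR, adjusted p = 1.3e-04). The gene was flagged with this difference, so its p adds no separate support, and it does not test either dose against VEH. The rise in SLO ½ was called under library size scaling alone (0.14, adjusted p = 0.035), a setting under which the fall in SLO was not called (-0.13, adjusted p = 0.054). Groups of 3 libraries are too small for a test of single outlying libraries.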

How the results depend on the processing

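Far more members fell than rose under every alternative run, in all 3 comparisons. The median change in SLO was -0.54 with library size scaling alone, where the median of all tested genes shifted from 0.014 to 0.089, and relative to all genes it was -0.62 in both. That scaling left 57 falls in SLO ½ in place of 67. Genes that rose from SLO ½ to SLO numbered 3 with no filter in place of 1, and 1 to 2 with a library left out. On TPM the log2 ratio of the members' share was -0.64 in SLO and -0.31 in SLO ½. With a library left out, the log2 difference of the RPL22L1 to RPL22 ratio was 0.29 to 0.39 (6 of 9 lost the call) and that of RPL26L1 to RPL26 -0.026 to 0.16. Among single genes, all without a call, the sign turned under library size scaling for RPL36AL in SLO (0.0198) and for RPL17 (0.037), RPL26 (0.00042), RPL39L (0.026) and RPLP1 (0.0299) in SLO ½, with at least 10 counts for RPL17 (0.00598), and on TPM for RPS28 in SLO ½ (-0.0151 with 1 added, filtered or not, and -0.0153 with 0.1 added). With a library left out it turned in SLO ½ for RPL17 (-0.045 to 0.034), RPL39 (-0.098 to 0.19), RPL39L (-0.073 to 0.031), RPLP1 (-0.072 to 0.0055), RPS26 (-0.18 to 0.00098) and RPS28 (-0.039 to 0.055), and between doses for RPL22L1 (-0.087 to 0.0096) and RPS27 (-0.30 to 0.053). The causes were not tested. Libraries of the same replicate number had weak positive correlations of their deviations (0.0028 to 0.087), and the own number was best in 11 of 18. Whether the numbers pair the libraries was not tested. The fit with the replicate number as a block gave 77, 67 and 76 falls, with medians of -0.61, -0.24 and -0.37. The genes under 20 CPM rest on the fewest reads, and the part of depth in their calls was not tested.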
